A study of Mus musculus with 6 samples.

Results

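Dynein arms are the motors of motile cilia. Each arm is built from heavy chains that carry the motor domain, intermediate chains that hold the heavy chains together at the base, and light chains, and the outer arms are fixed to the doublet microtubules of the axoneme by docking proteins. In the lung these arms belong to multiciliated cells of the airways, which arise from the same progenitors as the Clara cells (CCs) and whose beating moves mucus out of the airways. The genes described here are 10 of these non-motor parts, chosen by name and role, with earlier results of these data known: the outer arm intermediate chains Dnai1 and Dnai2, the outer arm light chain Dnal1, the outer arm docking proteins Ccdc114, Ccdc151 and Armc4, the inner arm intermediate chains Wdr63 and Wdr78, the inner arm light intermediate chain Dnali1 and the roadblock light chain Dynlrb2. All 10 were measured, each as 1 of 21225 genes on the arrays, with Dnai1 and Dnai2 listed under their older symbols Dnaic1 and Dnaic2.

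Whole lungs were taken at E18.5 from 3 control and 3 RbpjkCNULL embryos of the C57BL/6 strain, and each was hybridized to its own Affymetrix Mouse Gene 1.0 ST array. RbpjkCNULL lungs (Shhcre/+; RbpjkFlox/Flox) lack Rbpjk, the transcription factor of canonical Notch signaling, wherever the Shh-driven cre was active. The paper describes this ablation as specific to the airways. Which cells of these whole lungs lost or kept the gene was not measured here. Control lungs are named Shh cre/+ in one label and wildtype in another, so whether they carried the cre allele is not settled. The trachea was left out by cutting at the carina or below it. Values are log2 expression values from robust multiarray averaging (RMA), and all differences are RbpjkCNULL minus control. The test was limma, in which each gene's spread is moderated by that of the others, p values were adjusted over all genes by the Benjamini-Hochberg method, and rose and fell are used of genes whose adjusted p was under 0.05.

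Medians of the 6 arrays lay between 6.43 and 6.50, and correlations between arrays, across genes, between 0.988 and 0.997. Markers of the tissue were present, with mean log2 values of 10.4 to 10.8 over 9 markers of alveolar type 2 cells. Rbpj had log2 values of 6.45, 6.50 and 6.74 in control lungs and of 6.26, 6.17 and 6.18 in RbpjkCNULL lungs, a log2 fold change of -0.36 (SE 0.09, adjusted p = 0.21), with no overlap between groups, and where its probes lie relative to the deleted exons is not given in the sources used here. Scgb1a1, the secretoglobin that defines CCs, fell by 5.37 (SE 0.45, adjusted p = 0.00249). Xist, the RNA that coats the silenced X chromosome in females, measured 10.5, 10.7 and 4.91 in control lungs and 4.28, 4.13 and 4.21 in RbpjkCNULL lungs. A high Xist level, that of females, was thus found in 2 control lungs only, and for that part of the contrast sex and genotype cannot be told apart.

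The promoters of several of these genes carry a common palindrome. RFX transcription factors, which act in ciliated cells, bind a motif called the X-box, whose arms mirror each other. An X-box-like palindrome of 13 bases, made of the letters GTTNC, 3 bases of any kind and the mirrored letters GNAAC, was searched on both strands, where it reads the same, in RefSeq windows (GRCm38.p6) of 250 bases before to 50 bases after each start. These letters were chosen after the windows of the members had been read, so the share of members with a match was partly set by that choice. The comparison with all promoters is thus no test. Of 8 members with a window, 4 held the palindrome (50%), against 1.01% of 27025 promoters. Armc4 and Wdr78 were not matched to a window. The 4 windows with the palindrome, in capitals, and that of Dnali1, which had the largest change of the 10 genes and no such match, are shown to let the sites and their surroundings be compared:
Dynlrb2 (chr8:116504765-116505064, plus strand): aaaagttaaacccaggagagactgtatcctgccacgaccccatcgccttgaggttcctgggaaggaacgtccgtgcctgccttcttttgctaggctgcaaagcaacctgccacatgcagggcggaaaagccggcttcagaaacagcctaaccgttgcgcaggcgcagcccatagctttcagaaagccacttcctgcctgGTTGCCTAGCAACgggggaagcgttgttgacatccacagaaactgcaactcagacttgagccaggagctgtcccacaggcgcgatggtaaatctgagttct
Dnai2 (chr11:114727169-114727468, plus strand): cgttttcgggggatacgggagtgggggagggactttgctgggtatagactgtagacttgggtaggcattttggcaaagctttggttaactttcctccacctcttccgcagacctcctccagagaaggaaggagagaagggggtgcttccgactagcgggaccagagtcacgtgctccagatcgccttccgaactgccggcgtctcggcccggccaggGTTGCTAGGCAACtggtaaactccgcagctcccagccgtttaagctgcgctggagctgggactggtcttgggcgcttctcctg
Dnai1 (chr4:41569544-41569843, plus strand): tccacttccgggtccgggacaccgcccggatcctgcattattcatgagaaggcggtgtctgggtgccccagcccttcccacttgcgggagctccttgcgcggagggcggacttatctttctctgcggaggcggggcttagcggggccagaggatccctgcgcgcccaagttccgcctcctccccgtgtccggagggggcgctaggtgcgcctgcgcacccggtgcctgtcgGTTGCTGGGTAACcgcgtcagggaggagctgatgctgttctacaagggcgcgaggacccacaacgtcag
Ccdc151 (chr9:22002585-22002884, minus strand): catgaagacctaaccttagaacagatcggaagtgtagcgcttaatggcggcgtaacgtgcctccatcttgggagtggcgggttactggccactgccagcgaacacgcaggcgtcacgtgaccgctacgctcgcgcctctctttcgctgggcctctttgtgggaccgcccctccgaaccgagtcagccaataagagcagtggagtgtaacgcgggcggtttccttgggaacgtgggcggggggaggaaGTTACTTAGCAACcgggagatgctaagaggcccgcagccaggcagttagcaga
Dnali1 (chr4:125065608-125065907, minus strand): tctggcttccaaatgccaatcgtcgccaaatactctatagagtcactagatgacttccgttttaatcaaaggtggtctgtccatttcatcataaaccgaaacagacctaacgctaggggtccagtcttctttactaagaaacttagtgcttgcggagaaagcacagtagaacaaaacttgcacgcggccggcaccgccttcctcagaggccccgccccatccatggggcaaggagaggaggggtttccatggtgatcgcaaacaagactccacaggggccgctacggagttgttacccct

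In Dynlrb2 the site is GTTGCCTAGCAAC, at bases -51 to -39, with the start as base 0. In Dnai2 it is GTTGCTAGGCAAC, at -33 to -21. In Dnai1 it is GTTGCTGGGTAAC, at -19 to -7, and in Ccdc151 it is GTTACTTAGCAAC, at -3 to 9 and thus across the start. All 4 sites lay close to a start. The windows of Dynlrb2 and Dnali1 are set on the outermost start of the gene in RefSeq. Those of Dnai1, Ccdc151 and Dnai2 are set on a start 147, 338 and 6078 bases inside the span of the gene. A single arm of the motif, GTTGCT or AGCAAC on the other strand, was found in 6 of the 8 windows (75%, against 14.8% of all promoters), and 3 of its copies were in the window of Wdr63. This arm overlaps the palindrome in the 4 genes that hold it. The second form of the arm, GTTGCC or GGCAAC, was in 2 windows (25%, against 12.7%). The forkhead core TGTTTAC or GTAAACA was in 0 of the 8 windows (3.55% of all promoters). CCAAT or ATTGG was in 5 (62.5%, against 37.9%). The window of Dnali1 held neither arm, and that of Ccdc114 held only ATTGG. Among 13 axonemal heavy chain genes with a window 5 held the palindrome (38.5%), among 11 assembly factors 1 (9.09%), among 22 other markers of ciliated cells 1 (4.55%) and among 11 cytoplasmic dynein genes 0. These matches are a description of the letters, and binding was not measured.

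**Figure D1:**
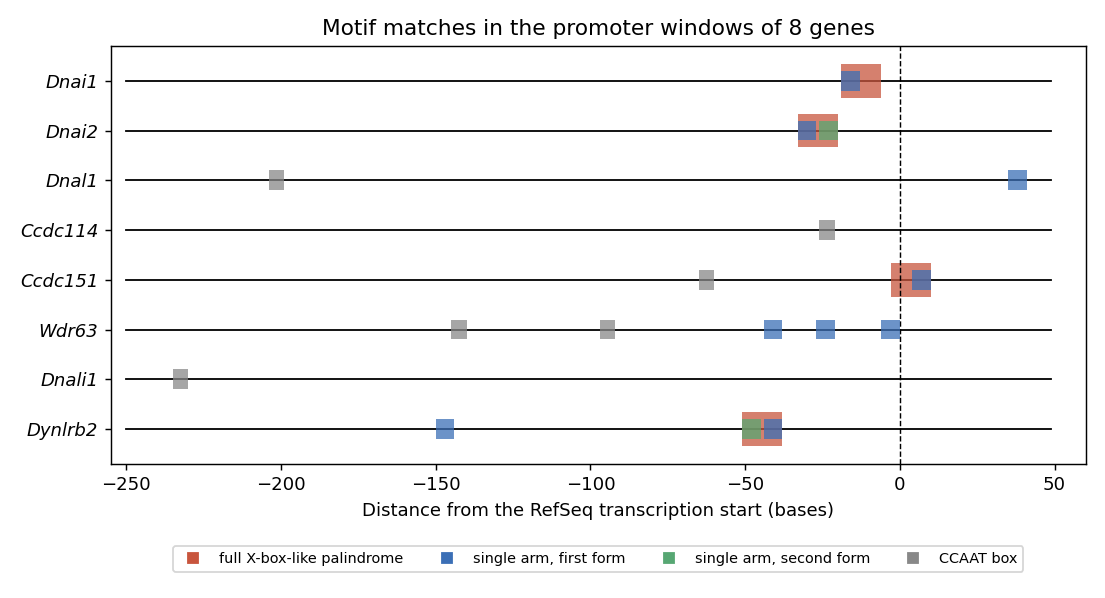
Positions of motif matches in the 300-base promoter windows of the 8 members with a RefSeq window, in bases from the transcription start (dashed line). Red blocks are the 13-base X-box-like palindrome, blue and green blocks its single arms in the first and second form, and grey blocks CCAAT boxes. The 4 palindromes of Dnai1, Dnai2, Ccdc151 and Dynlrb2 lie close to the start.

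Of the 10 dynein arm genes, 8 rose in RbpjkCNULL lungs, 0 fell and 2, Dnal1 and Ccdc151, missed the threshold. Of all 21225 genes 1.16% rose and 0.113% fell. All 10 had higher values in every RbpjkCNULL lung than in any control lung, which held for 4.95% of all genes, and the reverse, true of 0 of the 10, for 9.28%. Their log2 fold changes ran from 0.50 to 1.05 with a median of 0.81, against a median of -0.05 over all genes, and only Dnali1 exceeded a doubling, or 1 on the log2 scale. The paper cites earlier work in which lungs of this genotype had supernumerary ciliated cells. In these whole-lung values, more ciliated cells and more RNA per ciliated cell cannot be told apart.

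**Figure D2:**
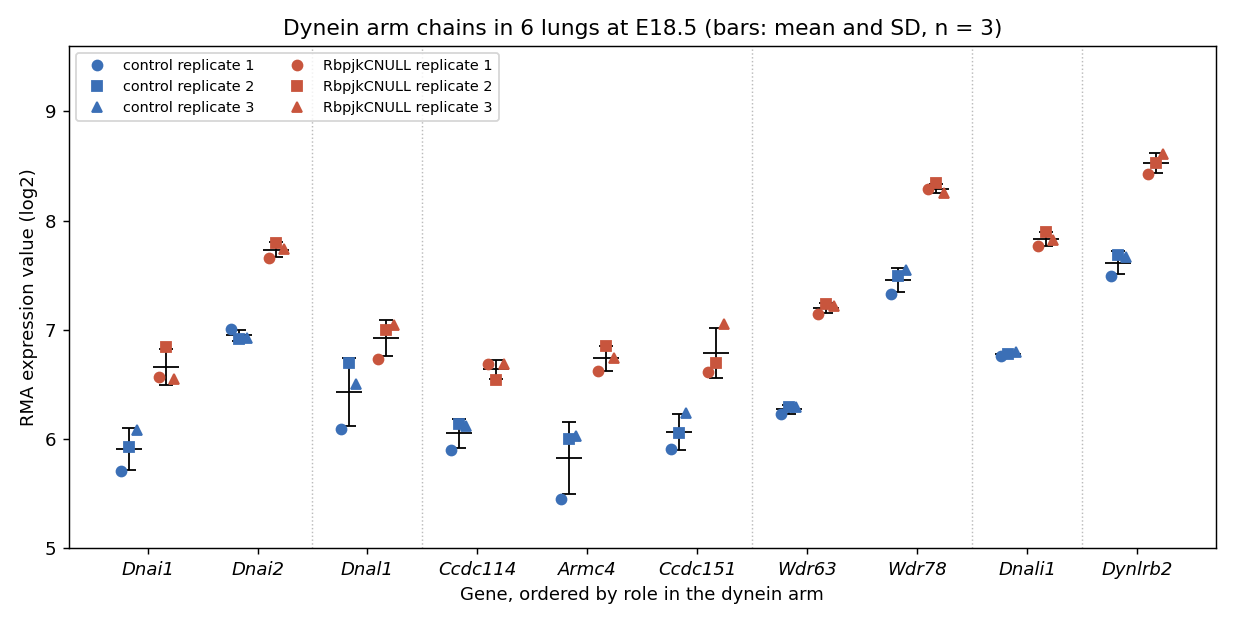
RMA expression values (log2) of the 10 dynein arm genes in each of 3 control lungs (blue) and 3 RbpjkCNULL lungs (red), with the mean and SD of each group. For every gene the lowest RbpjkCNULL lung lies above the highest control lung, by 0.98 for Dnali1 and by 0.04 for Dnal1.

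Both intermediate chains of the outer arm rose. Dnai1, whose human form is a cause of primary ciliary dyskinesia, had log2 values of 5.71, 5.93 and 6.09 in control lungs and of 6.57, 6.85 and 6.55 in RbpjkCNULL lungs. The groups were 0.47 apart at their nearest values, and the highest lung of all was RbpjkCNULL replicate 2. Its log2 fold change was 0.75 (SE 0.12, 1.68-fold, adjusted p = 0.0342), and this call was lost in each of the 6 fits without 1 array (adjusted p 0.0507 to 0.131). Dnai2, the partner of Dnai1 in the intermediate chain pair, had 7.01, 6.92 and 6.93 in control lungs and 7.66, 7.80 and 7.74 in RbpjkCNULL lungs. These lungs were tightly grouped, with a range of 0.09 among controls and of 0.14 among RbpjkCNULL lungs. Dnai2 was 1.72-fold higher (log2 fold change 0.78, SE 0.07, adjusted p = 0.00297). The changes of Dnai1 and Dnai2 differed by -0.03 (SE 0.15, two-sided exact permutation test, p = 1, 1 of 9 pairs compared, adjusted p = 1).

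The light chain Dnal1, which binds the motor domain of an outer arm heavy chain, had the smallest change of the 10 and the widest range among controls, 0.61. Its log2 values were 6.09, 6.70 and 6.50 in control lungs and 6.74, 7.0 and 7.04 in RbpjkCNULL lungs. The lowest RbpjkCNULL lung lay only 0.04 above the highest control lung. Its log2 fold change of 0.50 (SE 0.16, 95% interval 0.12 to 0.87, adjusted p = 0.398) did not pass the test. Over the 6 fits without 1 array this change ran from 0.33, without control replicate 1, to 0.63. It was 0.29 with each array's lower quartile as a covariate.

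The docking proteins anchor the outer arm to the doublet and are needed for its presence on the axoneme. Ccdc114 had log2 values of 5.90, 6.14 and 6.12 in control lungs and of 6.69, 6.54 and 6.68 in RbpjkCNULL lungs, and rose 1.5-fold (log2 fold change 0.59, SE 0.09, adjusted p = 0.026). Armc4, an armadillo repeat protein, had 5.45, 6.00 and 6.03 in control lungs and 6.62, 6.85 and 6.75 in RbpjkCNULL lungs. Control replicate 1 was far below the other controls for Armc4, which rose 1.88-fold (0.91, SE 0.16, adjusted p = 0.0451). Ccdc151 had 5.91, 6.05 and 6.23 in control lungs and 6.62, 6.70 and 7.05 in RbpjkCNULL lungs. Its groups were 0.38 apart, but its log2 fold change of 0.73 (SE 0.13, 95% interval 0.41 to 1.04, adjusted p = 0.0596) missed the threshold. Of the 6 fits without 1 array, Ccdc114 was called only without control replicate 2 (adjusted p 0.0449 to 0.148 over the 6), Armc4 only without control replicate 1 (0.0236 to 0.206) and Ccdc151 in 0 (0.0691 to 0.204).
The changes of Ccdc114 and Armc4 differed by -0.33 (SE 0.16, two-sided exact permutation test, p = 0.1, below which 3 lungs against 3 cannot go, adjusted p = 0.18 over 9 pairs). Ccdc151 was between them and differed from Ccdc114 by 0.14 and from Armc4 by 0.19 in size (exact p = 0.4 for each, adjusted p = 0.45).

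All 3 parts of the inner arm rose. Wdr63, the counterpart of the inner arm intermediate chain IC140 of the alga Chlamydomonas, had log2 values of 6.23, 6.29 and 6.30 in control lungs and of 7.15, 7.23 and 7.21 in RbpjkCNULL lungs. The groups were 0.85 apart, against a range of 0.07 among controls and of 0.08 among RbpjkCNULL lungs, and Wdr63 was 1.90-fold higher (log2 fold change 0.93, SE 0.07, adjusted p = 0.00163). Wdr78, the counterpart of the algal intermediate chain IC138, had 7.33, 7.49 and 7.55 in control lungs and 8.29, 8.34 and 8.25 in RbpjkCNULL lungs, a rise of 0.84 (SE 0.08, 1.79-fold, adjusted p = 0.00325). Their changes differed by 0.09 (SE 0.05, exact p = 0.3, adjusted p = 0.45). Dnali1, the counterpart of the algal inner arm light chain p28, had 6.76, 6.78 and 6.79 in control lungs and 7.77, 7.89 and 7.83 in RbpjkCNULL lungs. It was the most tightly grouped of the 10 genes among controls, with a range of 0.03, and it rose 2.07-fold (log2 fold change 1.05, SE 0.07, adjusted p = 0.00163). The change of Dnal1 was smaller than that of Dnali1 by a difference of -0.56 (SE 0.19, exact p = 0.1, adjusted p = 0.18).

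Dynlrb2 is a light chain of the roadblock family, in which its close relative Dynlrb1 serves cytoplasmic dynein in most cells. Dynlrb2 had log2 values of 7.49, 7.69 and 7.67 in control lungs and of 8.43, 8.53 and 8.61 in RbpjkCNULL lungs, and rose 1.88-fold (log2 fold change 0.91, SE 0.09, adjusted p = 0.00325). Dynlrb1 had 9.95, 9.87 and 9.93 in control lungs and 9.95, 9.93 and 9.87 in RbpjkCNULL lungs, where the groups overlapped throughout (log2 fold change -0.00085, SE 0.07, 95% interval -0.16 to 0.15). The changes of these relatives differed by 0.91 (SE 0.11, exact permutation p = 0.1, the lowest this design can give, adjusted p = 0.18).

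**Figure D3:**
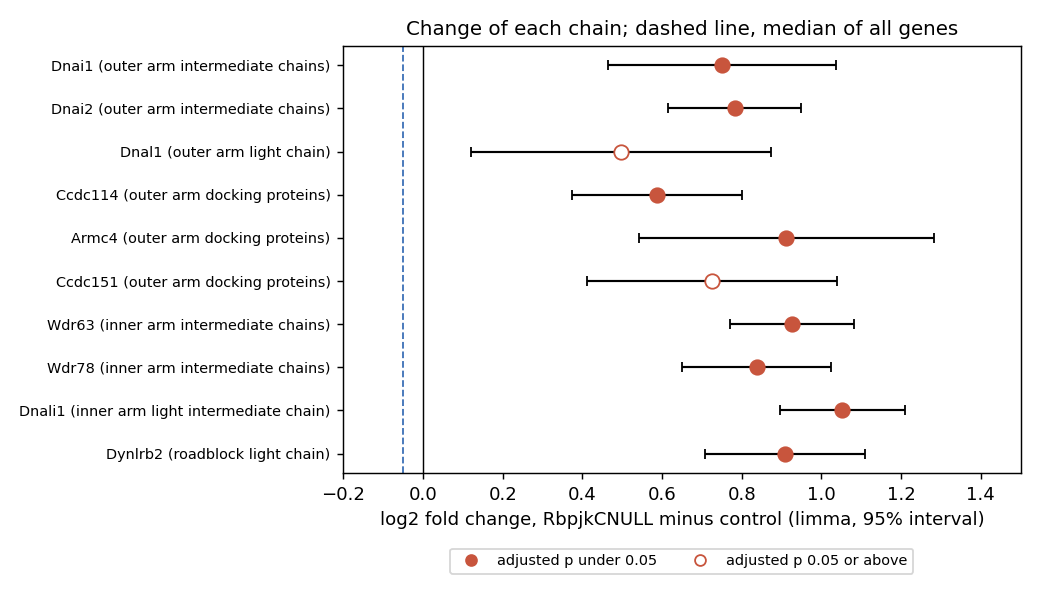
Log2 fold change of each of the 10 genes (RbpjkCNULL minus control, limma) with its 95% interval, ordered by role. Filled points passed an adjusted p under 0.05 and open points, Dnal1 and Ccdc151, did not, and every interval lies above the median of all genes (dashed line, -0.05).

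The lungs of 1 condition did not all stand at the same level. Control replicate 1 was the lowest control for 9 of the 10 genes, the exception being Dnai2, and RbpjkCNULL replicate 1 was the lowest of its group for 7. Averaged over the 10 genes, the lungs stood at -0.15, 0.06 and 0.09 from the control mean for control replicates 1 to 3 and at 0.72, 0.84 and 0.84 for RbpjkCNULL replicates 1 to 3. The lower quartile of all genes was 5.11, 4.89 and 5.08 on the control arrays and 5.03, 4.87 and 4.88 on the RbpjkCNULL arrays, and with it as a covariate 6 of the 10 genes were called, Dnai1 (adjusted p = 0.0592) and Armc4 (adjusted p = 0.0604) no longer, and the median change was 0.77. Over the 6 lungs each gene correlated with the mean of the other 9 at r = 0.859 (Dnal1) to r = 0.996 (Dynlrb2), over lungs that share the gap between conditions. The 5 other genes closest to the mean of the 10 by Pearson correlation over the 6 lungs, which share that gap, were Ccdc180 (r = 0.9997), Nme5 (r = 0.9995), Rsph1 (r = 0.9991), 1700028P14Rik (r = 0.9990) and Fank1 (r = 0.9990). The choice by correlation favours genes that share the gap, so that all 5 rose is no separate result. Their log2 fold changes were 0.88, 1.19, 1.12, 1.30 and 0.89.
Control replicate 3, the control lung with low Xist, can be set beside the RbpjkCNULL lungs, which had low Xist too. The mean of the RbpjkCNULL lungs exceeded that lung by 0.43 (Dnal1) to 1.04 (Dnali1), with a median over the 10 genes of 0.73, against a median of 0.86 above the 2 control lungs with high Xist. With the Xist level of each lung as a covariate, 0 of the 10 genes passed the adjusted test (9 at an unadjusted p under 0.05), as did 0 of all genes (1418 unadjusted), and their median change was 0.71.

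Other parts of the axonemal dyneins are set beside these 10 by lists of known genes. Among 8 further arm and docking parts that were measured, 3 rose and 0 fell, with a median log2 fold change of 0.29. Efcab1, or calaxin, a calcium-binding protein of the outer arm, rose by 1.23 (SE 0.12, adjusted p = 0.00325), from 5.74 ± 0.20 to 6.97 ± 0.13 (SD, n = 3 lungs each). Nme9, a protein with a thioredoxin domain, rose by 1.22 (SE 0.10, adjusted p = 0.00224), and Ttc25, which joins the docking complex, by 0.63 (SE 0.08, adjusted p = 0.011), a call lost without RbpjkCNULL replicate 2. The changes of Efcab1 and Nme9 were larger than that of any of the 10 genes. Tctex1d4 had 0.44 (SE 0.08, adjusted p = 0.0616), and the other 4 parts lay between -0.17 and 0.13. The control means of these 4 ran from 3.14 to 7.26, and some lay under the lower quartile of every array (4.87 to 5.11).
Of 14 axonemal heavy chains, the motors of the arms, 10 rose and 0 fell (median 0.78), with a change over 1 in 4 of those that rose. These were the inner arm heavy chains Dnah12 (1.45, SE 0.13, adjusted p = 0.00315), Dnah3 (1.16) and Dnah6 (1.14) and the outer arm heavy chain Dnah5 (1.10, SE 0.09, adjusted p = 0.00249). Dnah7a, Dnah7b and Dnah7c are close copies of each other, and how their signal divides among them is uncertain. Of 14 assembly factors, which build dynein arms in the cytoplasm before they enter the cilium, 5 rose and 0 fell (median 0.53), with Lrrc6 highest at 1.32 (SE 0.08, adjusted p = 0.00163), Dnaaf3 at 0.77, Dyx1c1 at 0.71 and Dnaaf1 at 0.49. The call of Dnaaf1 was lost without control replicate 2 or 3 and without RbpjkCNULL replicate 2 or 3 (adjusted p 0.0388 to 0.114 over the 6 fits without 1 array).

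Subunits of the cytoplasmic dyneins were compared because they are built on the same plan. Of 9 measured subunits of dynein 1, the motor of the cytosol, 0 were called by limma (0 at an unadjusted p under 0.05) or by the methods' equal-variance test (1 unadjusted), and their log2 fold changes ran from -0.13 to 0.12 with a median of 0.02. Its intermediate chain Dync1i2 had 9.34 ± 0.05 in control and 9.37 ± 0.08 in RbpjkCNULL lungs (SD, n = 3 each), a log2 fold change of 0.03 (SE 0.07, 95% interval -0.15 to 0.20). The change of Dnai1 exceeded it by 0.72 (SE 0.14, two-sided exact permutation test, p = 0.1, adjusted p = 0.18). Dynein 2 carries cargo back from the tip of every cilium, motile or not. The light chains Dynlrb1, Dynll1, Dynll2 and Dynlt3 were listed under dynein 1 only, and any place of theirs in dynein 2 was not considered. Of the 5 subunits listed under dynein 2, 1 rose and 4 did not pass, with a median of 0.35. All 5 were higher in every RbpjkCNULL lung than in any control lung. Dync2h1, the heavy chain of dynein 2, rose by 0.55 (SE 0.09, adjusted p = 0.0423), a call that was lost in each fit without 1 array. The dynein 2 intermediate chain Wdr34 had 0.35 (SE 0.08, adjusted p = 0.108). The change of the inner arm intermediate chain Wdr78 exceeded that of Wdr34 by 0.48 (SE 0.03, two-sided exact permutation test, p = 0.1, adjusted p = 0.18). Among 16 genes of dynactin and of dynein adaptors 0 were called by either test (0 and 1 unadjusted), with a median of -0.0032 and a range of -0.09 to 0.13.

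**Figure D4:**
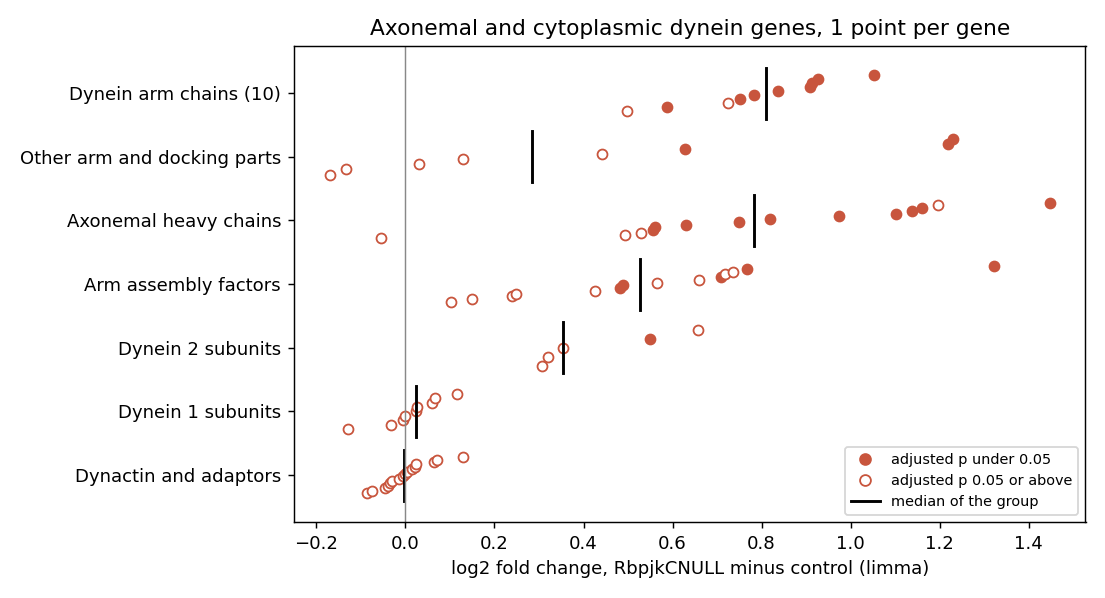
Log2 fold change (RbpjkCNULL minus control, limma) of each gene of 7 groups, with group medians as black bars and filled points for genes with an adjusted p under 0.05. The 10 dynein arm chains have a median of 0.81 and the heavy chains 0.78, while dynein 1 subunits and dynactin genes lie around 0.

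Markers of other cells in the lung are given beside these values. Of 27 other markers of ciliated cells 18 rose and 0 fell, with a median of 0.78, close to the 0.81 of the dynein arm genes, and their mean log2 level was 6.55 to 6.67 in control lungs and 7.29 to 7.37 in RbpjkCNULL lungs. Foxj1, the transcription factor that drives motile ciliogenesis, rose by 0.78 (SE 0.13, 1.72-fold, adjusted p = 0.0333), a call lost without control replicate 2 and without each RbpjkCNULL replicate, while Rfx2 had 0.23 (SE 0.06, adjusted p = 0.287) and Rfx3 0.37 (SE 0.08, adjusted p = 0.107). The lowest changes of the 27 were those of Mcidas (-0.20, SE 0.10, limma adjusted p = 0.664) and Ccno (0.05, SE 0.17, limma adjusted p = 0.944). Changes above 0 were found in 26 of the 27. Of 21 markers of CCs and other secretory cells 15 fell and 0 rose, but 11 of these markers were chosen by the study on these arrays and are no independent evidence of a direction. All 11 of those fell, with a median of -1.53. Of the other 10 markers 4 fell and 0 rose, with a median of -0.47 and a mean log2 level of 6.51 to 6.67 in control lungs and 6.20 to 6.36 in RbpjkCNULL lungs. Only Aldh1a1 among them had a change above 0 (0.72, SE 0.14, limma adjusted p = 0.0805), and its groups did not overlap. In 11 lists of other cell types, with 76 genes in all, 0 were called higher and 0 lower by limma (8 at an unadjusted p under 0.05). The methods' test also called 0 (6 unadjusted), and list medians ran from -0.19 (smooth muscle) to 0.16 (erythroid cells). One of these lists holds 10 neuroendocrine markers, with a median of -0.13 and 1 marker above 0. Their mean log2 level was low, 5.20 to 5.45 in control lungs and 5.14 to 5.23 in RbpjkCNULL lungs. The array medians were 6.43 to 6.50. The paper cites earlier work in which lungs of this genotype had extra neuroendocrine cells. Whether whole-lung values this low could show such extra cells was not tested. The part of cell composition in the dynein arm values was not tested.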

How the data were processed

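Total RNA of 3 control and 3 RbpjkCNULL whole lungs was hybridized to 6 arrays (Affymetrix Mouse Gene 1.0 ST). The authors processed the scans by RMA, which corrects background, quantile-normalizes and summarizes probes (R 2.12.0 per the submitters' processing notes) with an Entrez Gene probe set mapping, and the deposited values are log2 values, used here without filter or scaling. Columns were taken by sample and groups from the sample titles. Of 21225 genes 20239 had 1 symbol and 986 none.

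All genes were fitted with limma 3.58.1 under R 4.3.3 (lmFit and eBayes without trend, prior of 3.48 degrees of freedom), and adjusted p values are by Benjamini-Hochberg over all genes at a threshold of 0.05. The fit was tested on simulated arrays with known changes. Changes of 9 pairs of genes were compared with a two-sided exact permutation test on within-lung differences, adjusted over the pairs. Genes were matched through Entrez IDs, and promoters through RefSeq. Named are the 10 members, their pair partners, up to 4 genes of each dynein list by lowest adjusted p, up to 3 markers of a list, label checks and the 5 most similar genes. Mcidas and Ccno, with the lowest changes among the ciliated markers, are named besides. The members, lists, tests and alternatives were chosen with earlier results of these data known. Replicate numbers were not taken as pairs, because the labels name no pairs. Arrays numbered alike share no stated batch. The number of arrays limits the precision, and the background of single genes is unknown. The limma p values set each difference against the spread between these lungs, moderated over all genes. Each lung is a separate sample, and how litters were used is not given in the sources used here.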

Additional observations from a re-analysis of the deposited data

How the results depend on the processing

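All 186 values of the 10 genes under 19 alternatives were above 0, and their median log2 fold change, 0.81, ran from 0.71 to 0.87. The count of members called, 8, became 2 with the methods' t-test (9 at an unadjusted p under 0.05), 5 of the 6 that remain with a filter at the median of gene means, and 0 with the Xist level as a covariate (9 unadjusted). Without each array in turn it was 5 to 6, and Dnai2, Wdr63, Wdr78, Dnali1 and Dynlrb2 were called in all 6 of these fits. It was 5 without control replicate 3 and 5 without each of RbpjkCNULL replicates 1, 2 and 3. Over all genes 270 were called. This became 8 with the methods' t-test, 0 with the Xist covariate (1418 unadjusted) and 179 without both arrays numbered 1, and 139 to 236 without each array in turn, with 139 without RbpjkCNULL replicate 2 and 148 without RbpjkCNULL replicate 3. With fewer lungs each fit has less power. Beyond that the cause was not tested. When each array's lower quartile entered as a covariate, 6 members were called, without Dnai1 and Armc4, and quantile normalization again lost Armc4 (adjusted p = 0.0627). Of all genes, 325 were called with that covariate, and 80.9% of these were higher against 91.1%. For single values of the members, 143 stayed on the same side of the threshold, 36 lost the call and 7 gained it. Dynlrb1 and Dync1i2, never called, changed sign: Dynlrb1 to 0.0173 with median centring, 0.0334 with the lower quartile covariate and from -0.023 to 0.0222 over the fits without 1 array, and Dync1i2 to -0.0297 with the lower quartile covariate and from -0.012 to 0.0699 without 1 array.

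Same-numbered lungs had correlations of deviations from their group means of 0.491, 0.308 and -0.0872. Differently numbered lungs had -0.532 to 0.412. The labels name no pairs, so the numbers were not taken as pairs, but whether same-numbered lungs shared a batch is not settled. With a replicate block, 304 genes and 8 members were called, with Ccdc151 passing (adjusted p = 0.00997) and Ccdc114 not (0.0557), and the median of the members was 0.81.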
